A study of Mus musculus with 16 samples.

Results

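The 10 genes followed here are the antioxidant enzymes of erythroid cells and their regulators, namely Cat, Gpx1, Prdx2, Prdx1, Sod1, Sod2, Gclm, Gsr, Nfe2l2 and Hmox1. They were chosen by gene symbol, and each symbol matched 1 of the 46078 genes counted in every library. RNA had been sequenced from polychromatic erythroblasts (Poly-E) and the more mature orthochromatic erythroblasts (Ortho-E), which were separated by FACS for Ter119 and CD44 from steady-state bone marrow. All mice were C57BL/6N-A<tm1Brd> with the allele Ypel4<tm1a(EUCOMM)Wtsi> named in the strain label of every group (suffix /WtsiIeg), being either wild-type (Ypel4+/+) or homozygous for the mutant allele (Ypel4-/-), with 4 libraries in each of 4 groups and no treatment. The mutant allele is a gene trap carried in every cell of the mouse, it is the only mutant allele studied, and the labels give no ages. The design asks how gene expression differs between the genotypes within a population, and it also holds the step from Poly-E to Ortho-E within each genotype.

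Erythroblasts fill with hemoglobin, whose iron turns molecular oxygen into superoxide, and the mature red cell can no longer replace its proteins. Superoxide dismutases convert superoxide to hydrogen peroxide, and catalase, glutathione peroxidase 1 and the peroxiredoxins remove that peroxide. Glutathione is made by glutamate-cysteine ligase and kept reduced by glutathione reductase with NADPH, while NFE2L2 (NRF2) activates many of these genes through antioxidant response elements in their promoters.

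Promoters are shown for the 3 genes with the largest increases from Poly-E to Ortho-E and for Prdx1, which did not pass the test, because the results below turn on these genes. Each stretch is the 250 bases before the start of the RefSeq transcript in GRCm38.p6, read 5′ to 3′ on the strand of the gene, and RefSeq promoters were matched for 8 of the 10 genes. In the annotation used for counting, Gpx1 starts at 108338903, Prdx1 at 116685544 and Cat, on the minus strand, at 103485160. Each of these starts lies inside the printed window, which thus holds some counted exon bases. Capitals mark matches on either strand to TGACNNNGC, the core of the antioxidant response element, and, in Cat, to the CCAAT box.
Cat, chr2:103485154-103485403, minus strand: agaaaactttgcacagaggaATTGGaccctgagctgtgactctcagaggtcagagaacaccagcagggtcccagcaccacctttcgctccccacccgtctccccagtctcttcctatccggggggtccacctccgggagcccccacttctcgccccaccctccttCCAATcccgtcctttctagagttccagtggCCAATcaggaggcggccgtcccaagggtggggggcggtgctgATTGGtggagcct
Gpx1, chr9:108338830-108339079, plus strand: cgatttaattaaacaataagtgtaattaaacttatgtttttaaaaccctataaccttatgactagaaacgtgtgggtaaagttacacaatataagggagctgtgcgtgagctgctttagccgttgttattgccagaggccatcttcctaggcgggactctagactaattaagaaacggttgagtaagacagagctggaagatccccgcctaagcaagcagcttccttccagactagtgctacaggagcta
Gclm, chr3:122245307-122245556, plus strand: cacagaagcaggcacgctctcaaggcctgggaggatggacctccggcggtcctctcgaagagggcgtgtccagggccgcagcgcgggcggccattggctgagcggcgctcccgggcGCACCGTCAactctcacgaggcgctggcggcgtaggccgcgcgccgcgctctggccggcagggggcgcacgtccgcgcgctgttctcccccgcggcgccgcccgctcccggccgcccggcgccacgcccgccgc
Prdx1, chr4:116685349-116685598, plus strand: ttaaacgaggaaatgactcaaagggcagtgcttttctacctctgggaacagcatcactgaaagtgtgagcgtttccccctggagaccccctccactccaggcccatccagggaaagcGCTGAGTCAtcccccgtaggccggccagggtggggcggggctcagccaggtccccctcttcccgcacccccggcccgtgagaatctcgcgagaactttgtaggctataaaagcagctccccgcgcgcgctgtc
The response-element core stood in the windows of 4 of the 8 genes, Gclm, Prdx1, Nfe2l2 and Sod1, and in 10.2% of all 32851 promoters. The CCAAT box was matched 4 times in Cat, and it stood in the windows of 4 of the 8 genes and in 33.8% of all promoters. CCNCNCCC, a letter pattern of the CACCC type that KLF1 binds, was found on either strand in 7 of the 8 (45.9% of all promoters) and AGATAA, which erythroid factors of the GATA family bind, in 0 of the 8 (9.99% of all promoters). In Sod1, 1 of 3 CACCC-type matches overlapped the response-element match. These are matches of letters only. In GRCm38, Cat (chromosome 2, 103453849 to 103485160, minus strand) and Nfe2l2 (chromosome 2, 75675513 to 75704641, minus strand) lie on the chromosome of Ypel4, 18.7 and 9.03 Mb from it, and the other 8 genes lie on other chromosomes.

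Each library held between 2670173 and 12451234 counts. Ypel4 had 489.9 to 716 CPM (counts relative to library size) in wild-type against 9.90 to 23.6 CPM in mutant Poly-E, and 4429.5 to 5441 CPM in wild-type against 175 to 224 CPM in mutant Ortho-E, so every library carried the Ypel4 level of its label. The summed level of the 12 erythroid markers found (of 15 listed; Hbb-b1, Hbb-b2 and Ahsp matched no symbol) ranged from 59525 to 72057 CPM over the Poly-E libraries, and over the Ortho-E libraries from 238169 to 326566 CPM. CPM were scaled with TMM factors from edgeR, which hold the bulk of genes level between libraries. The factors lay between 1.45 and 1.64 in Poly-E and between 0.61 and 0.73 in Ortho-E. With library totals in place of TMM, the median log2 fold change of all genes from Poly-E to Ortho-E moved by -1.26 in Ypel4+/+ and by -1.39 in Ypel4-/- mice. The share of higher calls among all calls was then 14.7% instead of 45.1% in wild-type mice, and 15.5% instead of 48.4% in mutant mice. Each change with maturation is therefore given under both scalings, and in bulk RNA a difference in the number of cells of a type cannot be told apart from a difference in RNA per cell. Among the erythroid markers, Klf1, Gata1 and Cd44 were lower in Ypel4+/+ Ortho-E, at log2 fold changes of -0.40, -0.30 and -1.27. With library totals they were at -1.69, -1.59 and -2.54. The rest of the 12 had higher levels in Ypel4+/+ Ortho-E under both scalings.

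Gpx1 was the most abundant of the 10 transcripts in every group. To set genes beside each other, CPM were divided by the length of all annotated exons of a gene. That length need not be the length of the transcript present, so the order of the genes depends on it. Per kilobase of exon, the level of Gpx1 in Ypel4+/+ mice was 2355 ± 485 CPM (SD, n = 4) for Poly-E, and for Ortho-E it was 9960.4 ± 2178 CPM (SD, n = 4). In Ypel4+/+ Poly-E it was followed by Prdx2 at 622 CPM per kilobase, Sod1 at 282, Cat at 118, Gclm at 111, Gsr at 19.7, Nfe2l2 at 13.6, Prdx1 at 10.8, Sod2 at 7.93 and Hmox1 at 0.794. The neighbours Cat and Gclm, and Nfe2l2 and Prdx1, overlapped in their ranges over the 4 libraries, and the other neighbours did not.

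In Ypel4+/+ Ortho-E the order had changed. Cat stood second at 1324 CPM per kilobase, overlapping Prdx2 at 1208, and was followed by Gclm at 307 and Sod1 at 229.6. Nfe2l2 at 11.3, Prdx1 at 11.1 and Sod2 at 10.1 CPM per kilobase overlapped as neighbours, Gsr was at 4.87 and Hmox1 at 1.79. Cat thus went from rank 4 to rank 2 and Gsr from rank 6 to rank 9 (with Cat at rank 5, overlapping Gclm, in Ypel4-/- Poly-E). The order in Ypel4-/- Ortho-E was the same, with Cat above Prdx2 without overlap (1249.5 against 1124 CPM per kilobase) and with Gsr and Hmox1 overlapping. The place of Cat above Prdx2 rests on the exon lengths. In CPM not divided by length, Prdx2 had the higher mean in Ortho-E, 3685 against 3460 for Cat in Ypel4+/+ and 3430 against 3265 in Ypel4-/- mice. Together the 10 genes took 1.00% of all counts in Ypel4+/+ Poly-E and 1.51% in Ypel4+/+ Ortho-E, and 0.998% and 1.39% in Ypel4-/- mice.

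**Figure D1:**
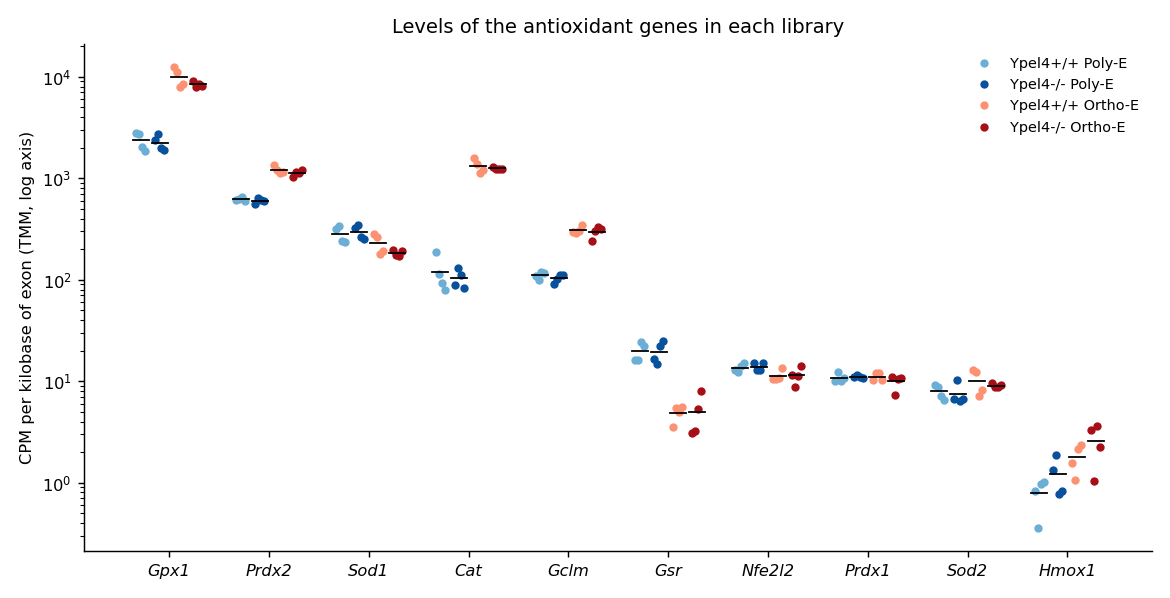
Level of each antioxidant gene in CPM per kilobase of exon (TMM, log axis) in the 16 libraries; each point is a library, each black line the mean of 4, and colours mark the 4 groups. Gpx1 lies highest in every group, Cat lies near 118 in Ypel4+/+ Poly-E and near 1324 in Ypel4+/+ Ortho-E, and the points of both genotypes overlap for every gene within a population; Cat and Gpx1 were higher and Gsr lower in Ortho-E with library totals as well, whereas Prdx2 and Hmox1 were not higher there.

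With maturation from Poly-E to Ortho-E in Ypel4+/+ mice, 6 of the 10 genes passed the test (edgeR's quasi-likelihood test, Benjamini-Hochberg adjusted p of at most 0.05 over 11747 genes), where 58.5% of all genes did. Cat, Gpx1, Gclm, Hmox1 and Prdx2 were called higher, against 26.4% of all genes, and Gsr was called lower, against 32.1%. With library totals 8 were called, against 70.7% of all genes: Cat and Gpx1 remained higher (10.4% of all genes), and Prdx2, Prdx1, Sod1, Sod2, Gsr and Nfe2l2 were called lower (60.3% of all genes). In Ypel4-/- mice 8 of the 10 passed (61% of 11973 genes), the same 5 and Sod2 higher (29.5% of all genes) and Gsr and Sod1 lower (31.5% of all genes). With library totals 9 were called in Ypel4-/- mice (72% of all genes), 3 higher (11.2%) and 6 lower (60.9%). In both genotypes, Cat and Gpx1 were called higher and Gsr lower under each of the 17 alternatives run. With the mouse as a block, 8 of the 10 genes were called in Ypel4+/+ mice, where 60.8% of all genes were. Below, it is stated for single genes whether the ranges of Poly-E and Ortho-E libraries overlapped. The share of all genes without such an overlap was not computed, so its absence does not set a gene apart.

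Cat, which splits hydrogen peroxide without a cofactor to be regenerated, showed the steepest increase of the 10. In Ypel4+/+ mice it was counted at 491, 298, 239.8 and 208 CPM in the 4 Poly-E libraries and at 4103, 3644, 2931 and 3161 CPM in the 4 Ortho-E libraries. The Poly-E libraries of Ypel4-/- mice had 232, 339, 289 and 217 CPM, and their Ortho-E libraries had 3391, 3198, 3217 and 3254 CPM. Every Ortho-E library lay above every Poly-E library, under library totals too. The log2 fold change was 3.52 (SE 0.29, adjusted p = 3.05e-06, edgeR) in Ypel4+/+ and 3.78 (SE 0.13, adjusted p = 2.09e-21, edgeR) in Ypel4-/- mice, and 2.25 and 2.36 with library totals. By size this ranked 128 among 11747 genes in Ypel4+/+ mice.

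Gpx1, the glutathione-dependent peroxidase, was counted at 4042, 3939.8, 2929 and 2665 CPM in the Ypel4+/+ Poly-E libraries and at 17967, 15943, 11291 and 12211 CPM in the Ypel4+/+ Ortho-E libraries. In Ypel4-/- mice, Poly-E held 3431, 3947, 2850.3 and 2731 CPM and Ortho-E 13170.3, 11336, 12338 and 11776 CPM. The populations did not overlap in either genotype. Its log2 fold change was 2.11 (SE 0.17, adjusted p = 8.48e-10, edgeR) in Ypel4+/+ and 2.09 (SE 0.12, adjusted p = 1.25e-16, edgeR) in Ypel4-/- mice, and 0.83 and 0.67 with library totals. Neither Cat nor Gpx1 shared any 50-base stretch of its transcripts with a transcript of another gene. Here and below, these stretches come from a transcript annotation other than that used for counting. They can lie outside the counted exons.

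Prdx2, the major peroxiredoxin of the red cell, changed the least of the 5 genes called higher in Ypel4+/+ mice with TMM, and its direction turned with the scaling. In TMM-scaled CPM it was at 1856, 1918, 2011 and 1799.8 in the Ypel4+/+ Poly-E libraries against 4116, 3717, 3415 and 3493 in the Ypel4+/+ Ortho-E libraries, a log2 fold change of 0.99 (SE 0.12, adjusted p = 2.94e-08, edgeR). In CPM of the library totals it was at 2688, 2959, 3016 and 2803 before the step, and after it at 2495, 2438, 2275 and 2163, which gave a log2 fold change of -0.29 (SE 0.10, adjusted p = 0.0123, edgeR). Neither scaling left an overlap between the populations. In Ypel4-/- mice the corresponding values were 1.07 (SE 0.11, adjusted p = 1.63e-10, edgeR) and -0.35 (SE 0.09, adjusted p = 0.00115, edgeR). Of its exons, 177 bases (5.80%) are shared with Rnaseh2a, and reads that overlap several genes had not been counted. Transcripts of 4 other genes, Rnaseh2a among them, contained 12.04% of its 50-base stretches, so its level is uncertain for this reason as well.

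Prdx1, a second cytosolic peroxiredoxin, stayed low, between 22.3 and 37.7 CPM over all 16 libraries. Its log2 fold change with maturation was 0.08 (SE 0.15, adjusted p = 0.67, edgeR) in Ypel4+/+ and 0.02 (SE 0.15, adjusted p = 0.931, edgeR) in Ypel4-/- mice, and -1.21 and -1.398 with library totals, where it was called lower. Transcripts of 75 other genes contained 8.81% of its 50-base stretches, and reads mapping to several places had been left out, so its level and its place in the order are uncertain.

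**Figure D2:**
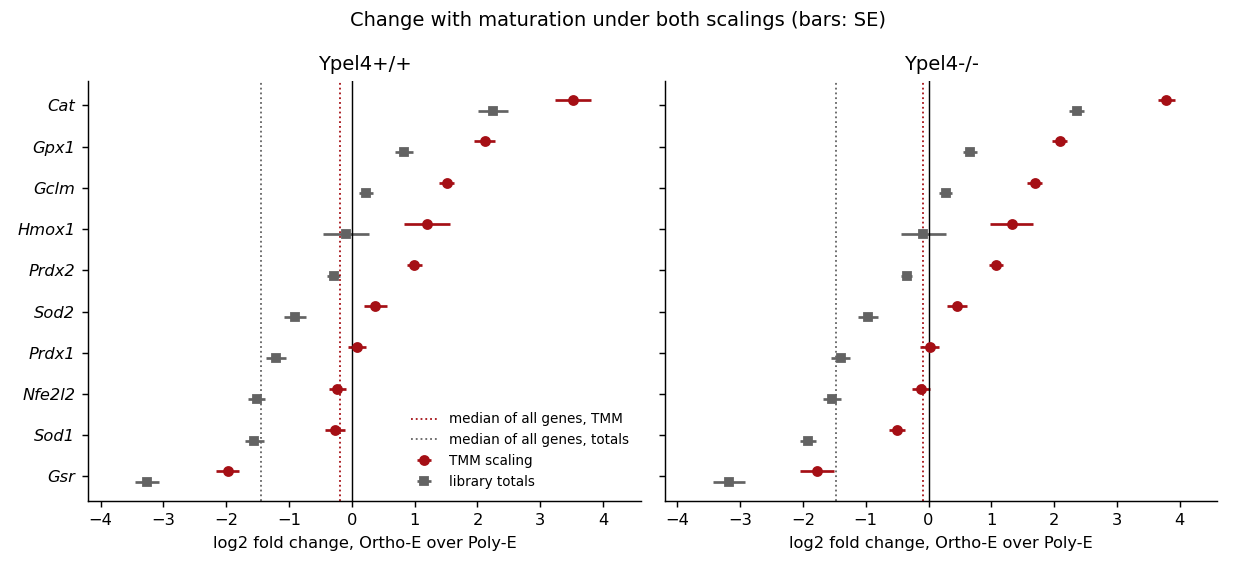
Log2 fold change of Ortho-E over Poly-E (x axis) for the 10 genes in Ypel4+/+ (left) and Ypel4-/- mice (right), with TMM scaling (circles) and with library totals (squares); bars are SE, and dotted lines the median of all genes. Cat and Gpx1 lie above 0 and Gsr below 0 under both scalings, whereas Prdx2, Hmox1, Sod2 and Prdx1 change side.

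Sod1 and Sod2 are the superoxide dismutases of the set. Transcripts of 1 other gene, Gm8566, contained 3.42% of the 50-base stretches of Sod1. Sod1, the cytosolic copper and zinc enzyme, had 205, 218, 155 and 152 CPM in Ypel4+/+ Poly-E against 181, 172, 115 and 125 CPM in Ypel4+/+ Ortho-E, and the populations overlapped. Its log2 fold change of -0.27 (SE 0.16, adjusted p = 0.146, edgeR) was called only once the mouse was taken as a block (adjusted p = 0.00605), with no filter on low counts, with a term for replicates 1 and 2 against 3 and 4, or with library totals (-1.55). In Ypel4-/- mice Sod1 had 208, 223, 169 and 161 CPM in Poly-E against 127, 113, 111 and 125 CPM in Ortho-E, without overlap, and a log2 fold change of -0.50 (SE 0.12, adjusted p = 0.000806, edgeR; -1.92 with library totals).

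Sod2, the mitochondrial manganese enzyme, ranged from 24.7 to 35.4 CPM in wild-type Poly-E, overlapping the 27.3 to 49.4 CPM of wild-type Ortho-E. Its log2 fold change was 0.37 (SE 0.18, adjusted p = 0.0795, edgeR) in Ypel4+/+ mice, and 0.46 (SE 0.16, adjusted p = 0.0116, edgeR) in Ypel4-/- mice, but -0.91 and -0.96 with library totals. In Ypel4+/+ mice it was called higher with the mouse as a block (0.36, adjusted p = 0.00948), with DESeq2 (0.52, adjusted p = 0.0428) and when Poly-E replicate 1 or 2 or Ortho-E replicate 3 or 4 was left out (0.48 to 0.57). Its call in Ypel4-/- mice was lost in a fit of all 16 libraries (0.29, adjusted p = 0.161, edgeR) and without a filter on low counts (0.38, adjusted p = 0.0506, edgeR). The ratio of Sod1 to Sod2, which does not depend on the scaling, was 33.6 to 38.0 in the Ypel4+/+ Poly-E libraries and 21.7 to 24.98 in the Ypel4+/+ Ortho-E libraries, without overlap. Of the 50-base stretches of Sod2, 21.04% also stood in other genes. The 10012 stretches outnumber its 3824 counted exon bases, so this is not the share of the counted gene.

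The 2 genes of glutathione metabolism moved in opposite directions. Gclm, the modifier subunit of the enzyme that begins glutathione synthesis, had 692, 619, 748 and 729 CPM in Ypel4+/+ Poly-E against 1847, 1832, 1903 and 2155 CPM in Ypel4+/+ Ortho-E, with a log2 fold change of 1.51 (SE 0.12, adjusted p = 1.73e-11, edgeR). In Ypel4-/- mice the Poly-E values were 570.2, 638, 700.4 and 699 CPM and the Ortho-E values 1502, 1916, 2096 and 1993 CPM, with a log2 fold change of 1.69 (SE 0.12, adjusted p = 5.73e-14, edgeR). The populations did not overlap in TMM-scaled CPM, but they did in CPM of the library totals, where the log2 fold changes were 0.22 (adjusted p = 0.0657) and 0.27 (adjusted p = 0.0172, edgeR). Gclm shares 296 exon bases (4.71%) with Gm17494 and Gm6061, and transcripts of 146 other genes contained 4.58% of its 50-base stretches.

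Gsr, the reductase that returns oxidized glutathione to its reduced form, had 44.2, 44.7, 67.0 and 61.4 CPM in Ypel4+/+ Poly-E against 9.72, 14.8, 13.7 and 15.4 CPM in Ypel4+/+ Ortho-E. The mutant Poly-E libraries had 45.2, 40.3, 61.4 and 68.6 CPM, and the mutant Ortho-E libraries 8.55, 8.90, 14.8 and 22.2 CPM. The populations did not overlap in either genotype. The log2 fold change was -1.98 (SE 0.18, adjusted p = 3.20e-10, edgeR) in Ypel4+/+ and -1.77 (SE 0.27, adjusted p = 5.62e-05, edgeR) in Ypel4-/- mice, and -3.27 and -3.17 with library totals. The ratio of Gclm to Gsr per kilobase ranged from 4.89 to 6.85 in wild-type Poly-E and from 54.0 to 83.2 in wild-type Ortho-E. For Gclm to Gclc, the catalytic subunit of the same enzyme, the ranges were 0.682 to 0.913 and 2.85 to 3.85, with Gclc itself at a log2 fold change of -0.56 (SE 0.14, adjusted p = 0.00163, edgeR; -1.85 with library totals), and Gclc was chosen with its values known.

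**Figure D3:**
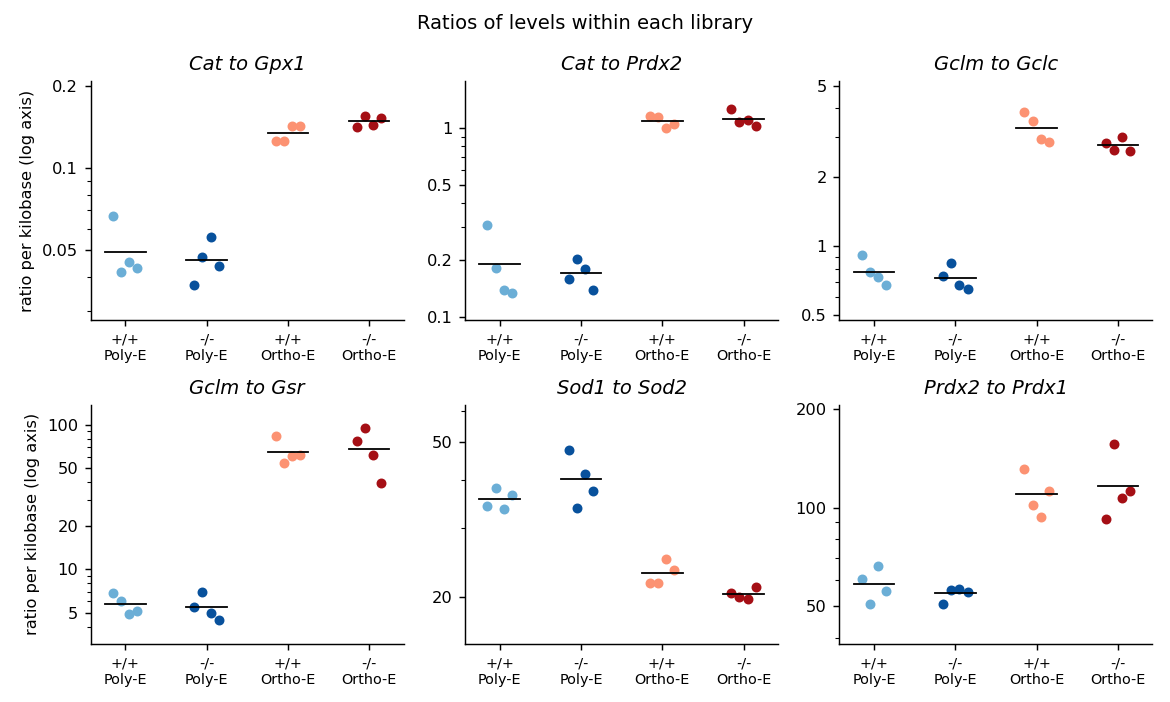
Ratio of the levels per kilobase of 2 genes within each library (log axes) for 6 pairs; points are the 16 libraries and lines the means of 4. Poly-E and Ortho-E libraries are apart in all 6 ratios, which do not depend on the scaling between libraries, for example 0.135 to 0.309 against 1.00 to 1.16 for Cat to Prdx2 in Ypel4+/+ mice. The share of all gene pairs that separate in this way was not computed, so this does not mark these pairs.

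Ratios per kilobase within a library place the other peroxide-removing enzymes against each other. Their size depends on the exon lengths used, but their change between populations does not. Cat to Prdx2 was 0.309, 0.181, 0.139 and 0.135 in the Ypel4+/+ Poly-E libraries and 1.16, 1.14, 1.00 and 1.06 in the Ypel4+/+ Ortho-E libraries. Cat to Gpx1 was between 0.0417 and 0.0670 in Ypel4+/+ Poly-E and between 0.126 and 0.143 in Ypel4+/+ Ortho-E, and between 0.0373 and 0.0560 and between 0.142 and 0.156 in Ypel4-/- mice. Prdx2 to Prdx1 was between 50.7 and 66.1 in Ypel4+/+ Poly-E and between 93.8 and 131 in Ypel4+/+ Ortho-E. In each of these ratios Poly-E and Ortho-E libraries did not overlap in either genotype. How many pairs of other genes separate in the same way was not computed.

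Nfe2l2, the transcription factor NRF2, lay between 46.5 and 57.7 CPM in wild-type Poly-E, overlapping wild-type Ortho-E at 39.97 to 50.6 CPM. Its log2 fold change was -0.23 (SE 0.14, adjusted p = 0.154, edgeR) in Ypel4+/+ and -0.12 (SE 0.14, adjusted p = 0.491, edgeR) in Ypel4-/- mice, and it was called lower, at -1.52 and -1.53, only with library totals. Its relative Nfe2, the erythroid NF-E2 subunit, was higher in Ortho-E under both scalings (log2 fold change 2.07, SE 0.12, adjusted p = 3.44e-14, edgeR; 0.78 with library totals), and the ratio of Nfe2l2 to Nfe2 was 0.104 to 0.135 in Ypel4+/+ Poly-E and 0.0212 to 0.0264 in Ypel4+/+ Ortho-E.

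Hmox1, the inducible heme oxygenase, rested on 4 to 35 counts per library, which makes it the least certain of the 10. It had 1.80, 0.774, 2.12 and 2.17 CPM in Ypel4+/+ Poly-E against 3.38, 2.28, 4.66 and 5.13 CPM in Ypel4+/+ Ortho-E, just without overlap, while in Ypel4-/- mice the populations overlapped. The log2 fold change was 1.19 (SE 0.37, adjusted p = 0.00688, edgeR; 1.03 with adjusted p = 0.0502 without Ypel4+/+ Ortho-E replicate 4) in Ypel4+/+ and 1.32 (SE 0.35, adjusted p = 0.00139, edgeR) in Ypel4-/- mice, and both were at -0.09 with library totals. The 11 macrophage markers, genes of cells that take up red cells and break down heme, summed to 2.71 to 6.48 TMM-scaled CPM before the step. After it they summed to 8.16 to 15.2 CPM. With library totals, the log2 fold changes of those tested in Ypel4+/+ mice ran from -0.72 for Mrc1 to 0.89 for C1qb. The 9 neutrophil markers summed to 0.874 to 4.66 CPM before the step and to 1.71 to 18.2 CPM after it, with Ly6g at 0 in every library. With library totals, those tested in Ypel4+/+ mice ran from 0.48 for Ngp to 2.06 for Ltf. The 4 megakaryocyte markers summed to 26.7 to 35.6 and to 90.0 to 113 CPM, with Pf4 at 0 in every Ortho-E library. This rise was that of Itga2b, at a log2 fold change of 2.25 in Ypel4+/+ mice (0.96 with library totals). Gp9 was at 0.06 (-1.22 with library totals), and Pf4 and Ppbp had too few counts there for a test. The part of these cells in the results was not tested.

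The pathways around the 10 genes were read from 5 lists of 66 genes in all, whose counts stand against the share of all genes called in the same fit. The lists were chosen with earlier results of these data known, so their counts describe the lists and are not an independent test. Of 12 tested regulators of antioxidant genes (of 13 listed), 8 were called higher and 1 lower from Poly-E to Ortho-E in Ypel4+/+ mice (26.4% and 32.1% of all genes), with a median log2 fold change of 1.61 where that of all 11747 genes was -0.19; with library totals 6 were higher and 3 lower (10.4% and 60.3% of all genes), with a median of 0.33. Sqstm1, which encodes the autophagy adaptor p62, rose by 2.98 (SE 0.14, adjusted p = 1.35e-15, edgeR; 1.70 with library totals) on the log2 scale. Keap1, the repressor of NRF2, fell by 2.03 (SE 0.18, adjusted p = 1.09e-10, edgeR; -3.32 with library totals). Bach1 and Cul3, picked with their values known, were called higher with TMM, at 1.78 and 0.84. With library totals they were at 0.50 and -0.44, both called. The list holds both activators and repressors, so its counts give no direction of antioxidant gene activity. Nfe2 had the highest level per kilobase of this list, at 120.4 CPM before and 492 CPM after the step in wild-type mice. In Ypel4-/- mice the counts were the same, 8 higher and 1 lower (29.5% and 31.5% of all genes).

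Among 10 peroxiredoxin and thioredoxin genes 3 were called higher and 3 lower in Ypel4+/+ mice, with a median log2 fold change of 0.19, close to the 26.4% and 32.1% of all genes. Txnrd2, the mitochondrial thioredoxin reductase, rose by 2.54 (1.26 with library totals) and Prdx4, the peroxiredoxin of the endoplasmic reticulum, fell by 2.58 (-3.86 with library totals) on the log2 scale. Prdx3, the mitochondrial peroxiredoxin and the most abundant per kilobase, was at 0.92 with TMM and at -0.36 with library totals, called in opposite directions. With library totals this list had 1 gene called higher and 8 lower, against 10.4% and 60.3% of all genes.

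Of 12 tested genes of the glutathione system (of 18 listed) 3 were called higher and 3 lower, with a median of -0.31, and 0 higher and 8 lower with library totals. These shares lie near those of all genes, 26.4% and 32.1% with TMM and 10.4% and 60.3% with library totals. The glutaredoxins Glrx and Glrx5, the latter needed for iron-sulfur clusters, were at log2 fold changes of 1.73 and 1.401, but at 0.44 and 0.11 with library totals, where neither was called. Glrx3 fell by 1.74 (SE 0.60, adjusted p = 0.0154, edgeR; -2.98 with library totals) and rested on low levels, a mean of 1.96 CPM before and 0.676 CPM after the step.

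For NADPH supply, 2 of 10 tested genes (of 11 listed) were called higher and 3 lower, with a median of -0.43, and 1 higher and 7 lower with library totals, also near the shares of all genes (26.4% and 32.1%, then 10.4% and 60.3%). Taldo1, the transaldolase of the pentose phosphate pathway, was higher under both scalings (1.71 and 0.42, both called). Pgd, an NADPH-producing enzyme of that pathway, was at 1.76, and at 0.46 without a call with library totals. Idh2, the mitochondrial NADPH-producing isocitrate dehydrogenase, fell by 2.27 (-3.54 with library totals).

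In the list of heme, iron and other oxidative defence, 6 of 13 tested genes (of 14 listed) were called higher and 2 lower, with a median of 0.50, against 26.4% and 32.1% of all genes. With library totals 1 was higher and 7 lower, near the 10.4% and 60.3% of all genes. Sesn1, a sestrin that acts in oxidative stress responses, rose by 2.51 (1.23 with library totals), and Hmox2, the constitutive heme oxygenase, fell by 1.62 (-2.88 with library totals) with means of 2.87 CPM before and 0.897 CPM after the step. Fth1, the ferritin heavy chain, had the highest level per kilobase of all 66 list genes in Ypel4+/+ Poly-E (2154 CPM), with a log2 fold change of 0.31 (adjusted p = 0.125, edgeR; -0.97 and called with library totals).

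**Figure D4:**
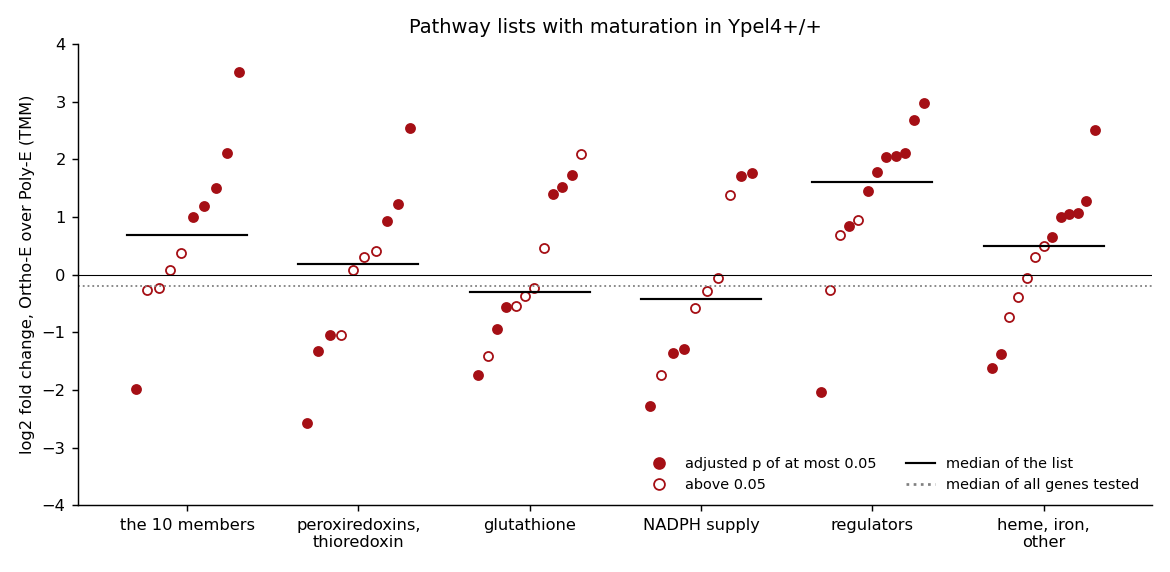
Log2 fold change of Ortho-E over Poly-E in Ypel4+/+ mice (TMM) for the 10 genes and the genes of 5 lists, each point a gene, filled where the adjusted p was at most 0.05; black lines are list medians and the dotted line the median of all genes. The regulators have 8 filled points above 0 and 1 below. With library totals every value is lower, and that list keeps 6 higher and 3 lower calls. The lists were chosen with earlier results of these data known.

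Between the genotypes 0 of the 10 genes passed the test in Poly-E (0.00807% of 12395 genes did, that is 1 gene) and 0 in Ortho-E (0.0285% of 10521 genes, 3 genes, of which 1 was higher, 0.0095%, and 2 were lower, 0.019%, under both scalings). DESeq2 called 2 genes in the first and 4 in the second comparison, and none of the 10. At an unadjusted p of at most 0.05, 271 genes passed in the Poly-E comparison, 0 of the 10 among them, and 387 in that of Ortho-E, 1 of the 10 among them. With the replicate number as a block, 4 genes were called in Poly-E, and again 0 of the 10. The correlations of the libraries do not show that these numbers pair the genotypes. Ranges of Ypel4+/+ and Ypel4-/- libraries overlapped for each of the 10 genes in both populations. The share of all genes with such an overlap was not computed, so this does not set the 10 apart. Of the tested genes of the 5 lists 0 were called either, under each setting run.

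The differences were small in size. For Poly-E, log2 fold changes of mutant over wild-type ran from -0.20 (SE 0.28) for Cat to 0.41 (SE 0.35) for Hmox1, with a median of -0.03, and for Ortho-E from -0.30 (SE 0.14) for Sod1 to 0.43 (SE 0.36) for Hmox1, with a median of -0.08. Gclm and Prdx2 had the smallest errors in Ortho-E, at -0.02 (SE 0.09) and -0.09 (SE 0.09). The lymphocyte markers Cd79a, Cd79b, Ms4a1, Cd3e and Cd3g, 5 genes chosen with their values known, summed to 15.4 to 17.0 CPM in wild-type against 22.0 to 25.6 CPM in mutant Ortho-E, without overlap. In Poly-E the sums were 7.74 to 11.1 CPM and, overlapping them, 10.4 to 18.4 CPM. Cd3e was at 0 in every library, and the part of these cells in the differences between genotypes or populations was not tested.

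Sod1 in Ortho-E was the gene that passed an unadjusted p of at most 0.05 (0.0448; adjusted p = 0.995, edgeR). Its 4 Ypel4+/+ libraries, given above, fell at 181 and 172 CPM for replicates 1 and 2 and at 115 and 125 CPM for replicates 3 and 4. The Ypel4-/- libraries lay between 111 and 127 CPM. Within replicates 1 and 2 the log2 ratio of Ypel4-/- to Ypel4+/+ was -0.56, and within replicates 3 and 4 it was -0.02. Replicates 1 and 2 had 2670173 to 4029715 counts per library and replicates 3 and 4 had 4505226 to 12451234, and the labels name no batch.

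The same split ran through other genes of the 10. Gpx1 was higher in both of replicates 1 and 2 than in both of replicates 3 and 4 in Ypel4+/+ Poly-E, Ypel4-/- Poly-E and Ypel4+/+ Ortho-E, by ratios of mean CPM of 1.43, 1.32 and 1.44, but not in Ypel4-/- Ortho-E, at 1.02. Sod1 and Sod2 were split the same way in these 3 groups. Gclm was lower in replicates 1 and 2 in all 4 groups, at ratios from 0.836 to 0.907, and Gsr in 3 of 4, at 0.472 to 0.693. Within replicates 1 and 2 and within replicates 3 and 4 of Ypel4+/+ mice the log2 ratios of Ortho-E to Poly-E were 3.295 and 3.76 for Cat, 2.09 and 2.07 for Gpx1 and -1.86 and -2.14 for Gsr.

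Whether the change with maturation differs between the genotypes was tested with the interaction over all 16 libraries. It was called for 0 of the 10 genes and for 0% of 13318 genes (363 at an unadjusted p of at most 0.05; 1 by DESeq2 and 1 with the mouse as a block, neither of the 10). The interaction was largest in size for Sod1, at -0.37 (SE 0.20, unadjusted p = 0.0773, adjusted p = 1 with edgeR), and lay between -0.19 and 0.12 for the other 9. The call of Sod1 and Sod2 in Ypel4-/- mice and not in Ypel4+/+ mice is thus not a called difference between the genotypes. It also holds only for the fit without a block. With the mouse as a block both genes were called in Ypel4+/+ mice too (adjusted p = 0.00605 and 0.00948, edgeR).

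**Figure D5:**
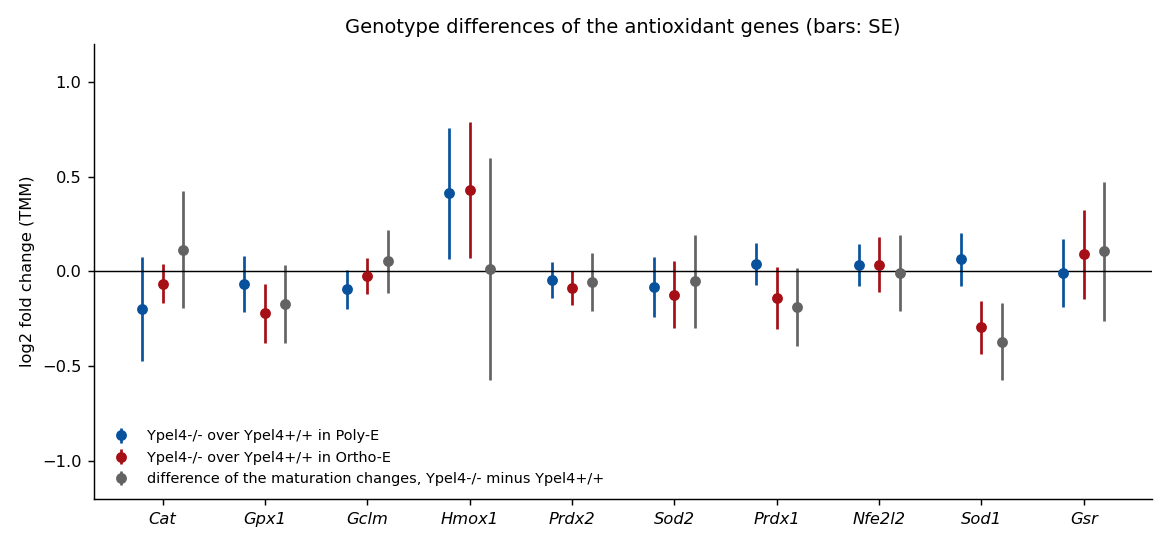
Log2 fold change (TMM) of mutant over wild-type for each population, and the interaction, for the 10 genes, with SE as bars. All points lie between -0.37 and 0.43, none of them called, with the widest bars for Hmox1 and the lowest point for the interaction of Sod1; with library totals the points lay between -0.37 and 0.46.

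The genes most like each of the 10 over the 16 libraries were sought by Pearson correlation of log2 CPM among 4834 genes whose mean level reached 10 CPM. The libraries share the step from Poly-E to Ortho-E, so these values describe mainly that step. Cat was closest to Bpgm (r = 0.9997), the enzyme that makes bisphosphoglycerate in red cells, then to Tfdp2 and Ube2b. Genes close to Gpx1 included Gabarapl2 and Mpc2 (r = 0.999 and 0.997), Prdx2 was closest to Hbb-bs, Ubac1 and Inpp5d (r = 0.994), and Gclm to Rab43, Foxo3 and Zfand6 (r = 0.997 to 0.999). Sod1 was closest to Rpl21, Gnb2l1 and Rpl4 (r = 0.961 to 0.980), Gsr to Qk, Chd4 and Ctcf (r = 0.991), and Sod2 to Bsg, Fth1 and Aqp1 (r = 0.888 to 0.919). The likeness was weakest for Prdx1, whose nearest gene was Tbpl1 (r = 0.795), and Hmox1 was nearest to Cdc14a (r = 0.851) and Nfe2l2 to Ylpm1 (r = 0.900).

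Among the 10 genes themselves, Cat correlated with Gpx1 at r = 0.989, with Prdx2 at 0.979 and with Gsr at -0.950 over the 16 libraries. As deviations from the group means, which leave the step out, Gpx1 and Sod1 still moved together (r = 0.963), as did Sod1 and Sod2 (0.907), while Cat and Prdx2 were at 0.312 and Gpx1 and Gclm at -0.552. These deviations hold the split between replicates 1 and 2 and replicates 3 and 4.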

How the data were processed

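Reads had been run through nf-core/rnaseq 1.4.2 on GRCm38 by the authors, who deposited, for each of 16 libraries, whole-number read counts per gene from featureCounts 1.6.4, not normalized. Per the file headers, exons were summed by gene without regard to strand, and reads mapping to several places or overlapping several genes were left out; the TruSeq kit does not mark strand. Groups and replicate numbers came from the sample titles.

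Genes whose counts summed to 10 or more in a comparison were tested with edgeR 4.0.16 in R 4.3.3 (TMM, robust quasi-likelihood test, Benjamini-Hochberg, threshold 0.05). The SE is the log2 fold change divided by the square root of F. Alternatives were DESeq2 1.42.0, its size factors, library totals, 2 filters, globin genes left out, all 16 libraries, replicate blocks, a term for replicates 1 and 2 against 3 and 4, and leaving out each library. The tests were tried on simulated data in which few genes changed. That trial held no shift of most genes, so it cannot speak for the scaling between Poly-E and Ortho-E. CPM used TMM over 16 libraries; correlations used log2 CPM with a prior count of 2. P-values measure the spread between libraries, and counting intervals were not computed.

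The members and lists were chosen with earlier results of these data known. Named genes were the 10 members, Ypel4, and, per list, the called genes with the highest and lowest change in Ypel4+/+ mice, the gene highest per kilobase and any gene called between genotypes. Poly-E and Ortho-E libraries of a number share a further number in their deposited names, read as the mouse; correlations of their deviations were 0.487 to 0.651 in Ypel4+/+ and 0.0859 to 0.565 in Ypel4-/- mice. Same-numbered libraries of the 2 genotypes had 0.233 to 0.642 in Poly-E and -0.135 to 0.339 in Ortho-E. Libraries of different numbers reached 0.601 and 0.321 there, so these correlations do not show that the numbers pair the genotypes. No 2 libraries were copies of each other. A marker gene and a correlated gene are not reported here.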

Additional observations from a re-analysis of the deposited data

Results flagged for a closer look

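In 3 of the 40 groups of 4 libraries tested for the 10 genes, a library lay far from the other 3, about what chance gives, since it sets apart about 1 group in 20. Prdx1 was lowest in replicate 2 of Ypel4-/- Ortho-E, at 22.3 CPM from 60 counts, where the other 3 libraries were at 31.9 to 33.7 CPM. Sod2 was highest in replicate 2 of Ypel4-/- Poly-E, at 39.1 CPM, with the others at 24.1 to 25.7 CPM. Nfe2l2 was highest in replicate 4 of Ypel4+/+ Ortho-E, at 50.6 CPM, with the others at 39.97 to 40.7 CPM.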

How the results depend on the processing

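Values of the 10 genes that were called before or after turning direction turned with library totals: from Poly-E to Ortho-E in Ypel4+/+ mice Prdx2 came to -0.29, Prdx1 to -1.21, Sod2 to -0.91 and Hmox1 to -0.090, and in Ypel4-/- mice Prdx2 to -0.35, Prdx1 to -1.398, Sod2 to -0.96 and Hmox1 to -0.085 (log2). The summed levels per kilobase came to 5343 and 5345 CPM in Ypel4+/+ and Ypel4-/- Poly-E and to 8295 and 7516 CPM in Ortho-E with library totals. TMM and library totals cannot both hold, and the counts alone do not choose between them. Numbers of genes called between the genotypes were small and moved. In Poly-E, 1 gene became 2 with DESeq2, 3 with all 16 libraries, 4 without a filter, 4 with the replicate block and 3 with the term for replicates 1 and 2, and 1 to 2 with each library left out. In Ortho-E, 3 genes became 5 without a filter and 13 with the replicate block, and 3 to 4 with each library left out. In neither population do the correlations show that the numbers pair the genotypes. For the interaction, 0 became 1 with DESeq2 and 1 with the block, and 0 to 1 with each library left out. None of these calls was of the 10 genes or the lists. The cause was not tested. Another 65 values, called on neither side, changed sign, among them Cat between genotypes in Poly-E (-0.20, and 0.12 without Ypel4+/+ Poly-E replicate 1) and Gsr in Ortho-E (0.09, and -0.25 without Ypel4-/- Ortho-E replicate 4). With the mouse as a block, 8 of the 10 genes were called in Ypel4+/+ mice instead of 6 (60.8% of all genes instead of 58.5%). Depth limits Hmox1, with 4 to 35 counts per library, and Gsr in Ortho-E, with 19 to 115.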
